A study of Bos taurus with 6 samples.

Results

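The miR-199 and miR-214 miRNAs of primary bovine myoblasts were compared between resveratrol (RSV) treatment and the solvent control. Of the 765 miRNA entries in the authors' deposited table, 6 belong here: bta-miR-199a-3p, bta-miR-199a-5p, bta-miR-199b, bta-miR-199c, bta-miR-214 and bta-miR-3604. The first 5 were chosen by name, and bta-miR-3604 was added because its read counts are nearly those of bta-miR-199a-3p. The cells came from the longissimus dorsi muscle of fetal beef cattle. In the RSV group, 3 cultures received 20 μM RSV dissolved in DMSO, and in the DMSO group 3 cultures received DMSO alone. Cultures of both groups were kept in differentiation medium for 4 days. The table holds 1 mean per group and miRNA, which is the average over the 3 libraries of reads divided by a library size factor (normalized reads). Values of single cultures could not be recovered from the deposited means for these 6 entries, and values of single samples listed with the paper were not used here. So every difference below is a difference of 2 group means without a replicate check, and no test was made.

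A miRNA is cut from a hairpin precursor, and either arm of the hairpin, named 5p or 3p, can be loaded onto an Argonaute protein and guide it to mRNAs that pair with the seed near the miRNA's 5′ end. The miR-199 and miR-214 miRNAs are known from mesenchymal tissues and fibroblasts. miR-199a-5p is known to repress caveolin 1, miR-199a-3p to repress mTOR, and miR-214 to repress the histone methyltransferase EZH2 during muscle differentiation. In mammals the miR-199a and miR-199b hairpins give the same mature 3p sequence, while their 5p sequences differ.

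The hairpins of all 6 entries have a name in the RefSeq annotation of the ARS-UCD2.0 assembly, which was used for names and for which genes overlap, since the reads had been mapped to another build (UMD_3.1.1). MIR199A-1 and MIR214 overlap DNM3, and the same uncharacterized lncRNA gene, LOC132342463, overlaps both. MIR199A-2 overlaps DNM2 and MIR199B overlaps DNM1. So 3 genes of the dynamin family, which encode GTPases of membrane fission, overlap the miR-199a, miR-199b and miR-214 hairpins. MIR199C overlaps none of these genes and instead overlaps the nucleoporin gene NUP88. MIR3604-1 overlaps MIR199A-2 and MIR3604-2 overlaps MIR199B, so bta-miR-3604 is annotated at places that already carry a miR-199 hairpin. The annotation table used here gives no strand. MIR214 is overlapped by a further miRNA gene, MIR3120.

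All 6 entries were lower in the RSV than in the DMSO group mean, by between 16.0% and 27.5%. bta-miR-199a-3p had a mean of 321333 normalized reads in the RSV group and 407149 in the DMSO group, which is 21.1% lower after RSV (log2 ratio −0.34). It held rank 4 among the 765 entries in the RSV group and rank 3 in the DMSO group. bta-miR-143, a miRNA of smooth muscle and fibroblasts, lay below it in the DMSO group, with 360521 normalized reads, and above it in the RSV group, with 349090.

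bta-miR-3604 had 321286 normalized reads in the RSV and 407041 in the DMSO mean, a log2 ratio of −0.34. Its means lay 47.5 normalized reads below those of bta-miR-199a-3p in RSV and 108 below in DMSO, or 0.0148% and 0.0265% of the bta-miR-199a-3p mean. These entries therefore count as 1 measurement, and how many of the reads belong to each name cannot be told apart from the means.

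**Figure D1:**
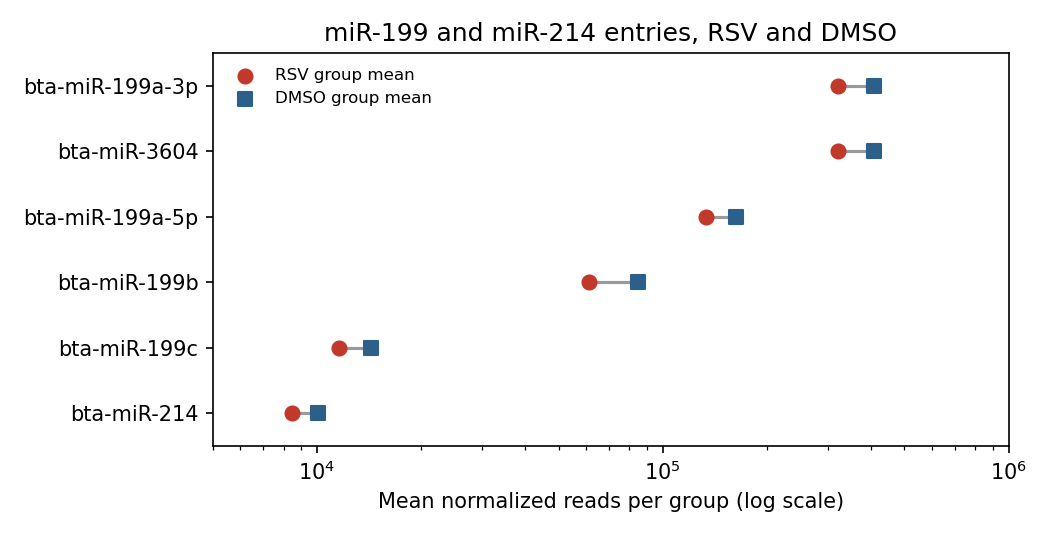
Mean normalized reads of each entry (log axis) in the RSV group (circles) and the DMSO group (squares), each point the authors' mean over 3 libraries. Every RSV mean lies to the left of its DMSO mean, from 8452 against 10059 for bta-miR-214 to 321333 against 407149 for bta-miR-199a-3p.

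bta-miR-199a-5p, from the other arm of the miR-199a hairpins, had 133246 normalized reads in RSV and 162358 in DMSO, 17.9% lower after RSV (log2 ratio −0.29). bta-miR-199b, whose name gives no arm, had 61339 in RSV and 84659 in DMSO. Its mean was 27.5% lower (log2 ratio −0.46), the largest relative difference among the 6 entries.

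bta-miR-199c, whose hairpin overlaps NUP88, had 11569 normalized reads in RSV and 14343 in DMSO, a log2 ratio of −0.31. bta-miR-214 was the least abundant of the 6, with 8452 in RSV and 10059 in DMSO, and it also had the smallest relative difference, 16.0% (log2 ratio −0.25). bta-miR-3120, whose gene overlaps MIR214, had 1155 in RSV and 1329 in DMSO (log2 ratio −0.20). The order of the 6 entries by level was the same in both groups.

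The reads behind these means are many, so that counting alone leaves little error. The counting standard error of the log2 ratio, computed from the means and the size factors, was 0.0020 for bta-miR-199a-3p and 0.012 for bta-miR-214. The 95% counting interval of the log2 ratio was −0.35 to −0.34 for bta-miR-199a-3p, −0.47 to −0.46 for bta-miR-199b and −0.28 to −0.23 for bta-miR-214. These intervals cover counting error only and leave out the spread between cultures, and reads amplified by PCR are not independent molecules. In the deposited table that spread can be seen in scarcer miRNAs, where the group mean could be taken apart into whole reads of the 3 libraries. Among miRNAs with a mean of 100 to 200 normalized reads, the median coefficient of variation between libraries was 8.48% in RSV (36 miRNAs) and 7.73% in DMSO (37 miRNAs). Counting alone gives a median of 7.62% and 9.34% at these levels. The variation beyond counting, from the mean squares, came to 12.9% in RSV and 4.70% in DMSO. Whether the miR-199 and miR-214 entries varied as much between cultures was not tested. These coefficients are for single libraries, and the differences of 16.0% to 27.5% are between means of 3.

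A log2 ratio at least 0.32 from 0, a fold set as the limit for a description, was counted as past the limit. Of the 6 entries, 3 were lower in RSV by at least this much (bta-miR-199b, bta-miR-199a-3p and bta-miR-3604), against 8.95% of the 391 miRNAs that averaged 10 or more normalized reads over both groups. With bta-miR-3604 left out as a repeat of bta-miR-199a-3p, 2 of 5 were. None of the 6 was higher by as much, against 13.6% of all 391. At 1.1-fold, 6 of 6 were lower, against 29.7% of the 391, and at 1.5-fold none was, against 3.32%. The median log2 ratio of the 6 was −0.33, and that of the 391 miRNAs was 0.0049. The entries were chosen with results of this contrast known, so these counts describe them and are not independent support for a change.

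The 6 entries are among the abundant miRNAs of these cells, and with the deposited size factors most abundant miRNAs were lower in the RSV means. Of the 82 miRNAs that averaged 5000 or more normalized reads, a level chosen after seeing the data, 55 had a log2 ratio below 0 and the median was −0.10. With both groups scaled to the same total of miRNA reads, 30 of the 82 were below 0 and the median was 0.05, so the direction for abundant miRNAs as a group turns with the scaling. With the deposited size factors and without the 6 entries, the median of the other 76 was −0.08, with an interquartile range from −0.19 to 0.04, and 5.26% of them were past the limit in the lower direction. All 6 entries lay below this interquartile range. In the order of the 82 log2 ratios from the lowest, bta-miR-199b was number 1, bta-miR-199a-3p number 5, bta-miR-3604 number 6, bta-miR-199c number 8, bta-miR-199a-5p number 13 and bta-miR-214 number 17.

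**Figure D2:**
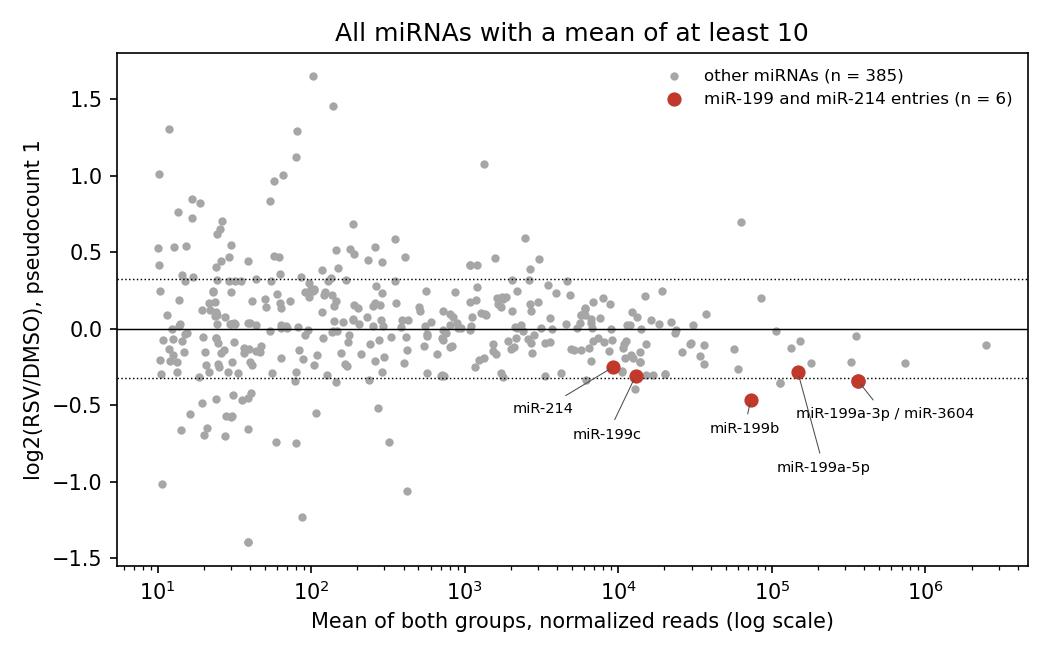
log2 ratio of the RSV to the DMSO mean (pseudocount of 1 normalized read) against the mean of both groups (log axis) for the 391 miRNAs with a mean of at least 10. The 6 entries (large points) all lie below 0 at the abundant end, between −0.46 and −0.25, and dotted lines mark the limit of 0.32 on either side of 0.

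The size of the difference rests on the scaling between the groups. Summed over all entries, the group means came to 6637955 normalized reads in RSV and 7340618 in DMSO. When each group was rescaled to the same total over all miRNAs, every log2 ratio rose by 0.15. The log2 ratios were then −0.20 for bta-miR-199a-3p and bta-miR-3604, −0.14 for bta-miR-199a-5p, −0.32 for bta-miR-199b, −0.16 for bta-miR-199c and −0.11 for bta-miR-214. All 6 kept their sign, and 0 of 6 were past the limit of 0.32, bta-miR-199b narrowly so. At this scaling 5.12% of the 391 miRNAs were past the limit in the lower direction and 26.9% in the higher, and 27.6% had a log2 ratio below 0. The entries themselves take part in this total, and the near-equal reads of bta-miR-199a-3p and bta-miR-3604 are both summed in it. Without bta-miR-3604 the totals were 6316669 normalized reads in RSV and 6933577 in DMSO. bta-miR-199b lay so near the limit that its place on either side of it rests on this choice. Rescaled to the same total over the other miRNAs alone, the log2 ratios ran from −0.35 for bta-miR-199b to −0.14 for bta-miR-214. The order among the abundant miRNAs does not depend on these scalings.

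**Figure D3:**
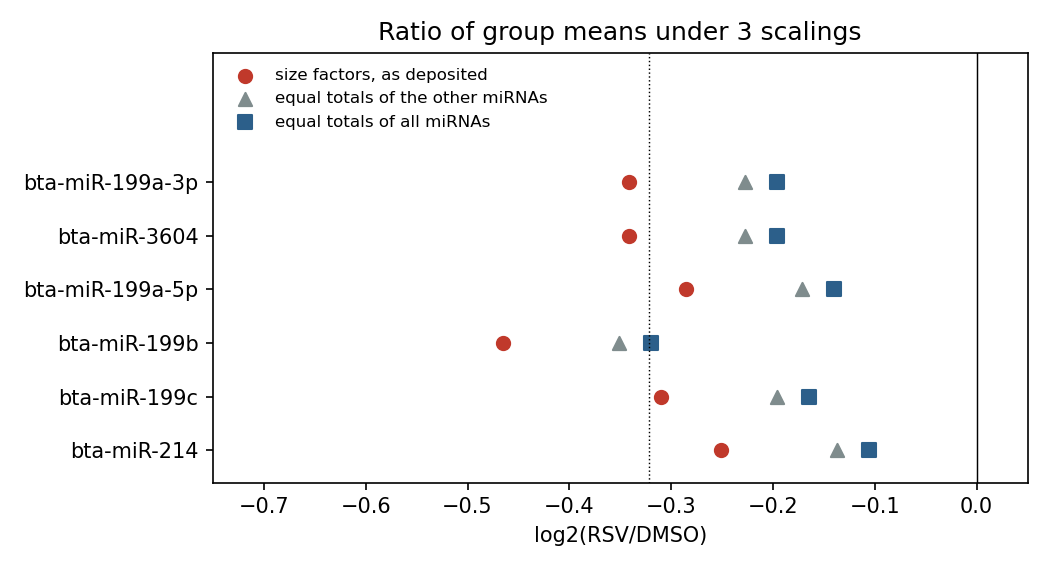
log2 ratio of the RSV to the DMSO mean for each entry with the deposited size factors (circles), scaled to equal totals of the other miRNAs (triangles) and to equal totals of all miRNAs, bta-miR-3604 included (squares). All points lie below 0, and the dotted line at the limit of 0.32 has 3, 1 and 0 entries beyond it under the 3 scalings.

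With bta-miR-3604 left out so that its reads are not summed a second time, the 5 other entries made up 8.48% of the summed miRNA reads in the RSV group and 9.79% in the DMSO group. Other pairs with nearly equal means, such as bta-miR-26a and bta-miR-26c, were still summed as separate entries in these totals. The sum of the 5 entries fell short in RSV by 142628 normalized reads, which is 23.1% of the difference of 616908 between these group totals. bta-miR-21-5p, the most abundant miRNA in both groups, accounted for 183030 of that difference, with a log2 ratio of −0.11.

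Ratios between entries within a group do not depend on the scaling, and some of them differed between the group means by more than counting error. The 3p to 5p ratio of miR-199a was 2.41 in RSV and 2.51 in DMSO, a log2 difference of −0.06 with a 95% counting interval from −0.06 to −0.05. When bta-miR-199b was added to the 5p side, the ratio was 1.65 in RSV and 1.65 in DMSO. The log2 difference was then 0.0027, and its counting interval from −0.0036 to 0.0090 included 0. Whether the arm ratio differed by more than counting error thus rests on whether bta-miR-199b is counted with the 5p arm. Whether any of these ratios differed by more than the spread between cultures was not tested. With the shared 3p sequence given above, the bta-miR-199a-3p reads can also come from the miR-199b hairpin. bta-miR-199b, with 61339 in RSV and 84659 in DMSO, did not have means near those of bta-miR-199a-3p. If it is the 5p product, only the ratio with bta-miR-199b added sets both arms of the same hairpins against each other.

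bta-miR-199b amounted to 0.460 of bta-miR-199a-5p in RSV and 0.521 in DMSO, a log2 difference of −0.18 (95% counting interval −0.19 to −0.17). Against bta-miR-199a-3p it amounted to 0.191 and 0.208, a log2 difference of −0.12. bta-miR-199b, whose hairpin overlaps DNM1, thus had a lower group mean in RSV relative to both bta-miR-199a-5p and bta-miR-199a-3p. Reads of the latter can also come from the miR-199b hairpin.

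The other entries stayed closer to bta-miR-199a-5p, whose hairpins overlap DNM3 and DNM2 and cannot be told apart in its reads. bta-miR-214 amounted to 0.0634 of bta-miR-199a-5p in RSV and 0.0620 in DMSO, a log2 difference of 0.03 (95% counting interval 0.0091 to 0.06). bta-miR-3120 amounted to 0.137 of bta-miR-214 in RSV and 0.132 in DMSO, and the counting interval of its log2 difference, −0.02 to 0.12, included 0. bta-miR-199c lay between bta-miR-199a-3p and bta-miR-199a-5p, with log2 differences of 0.03 relative to the former and −0.02 relative to the latter.

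**Figure D4:**
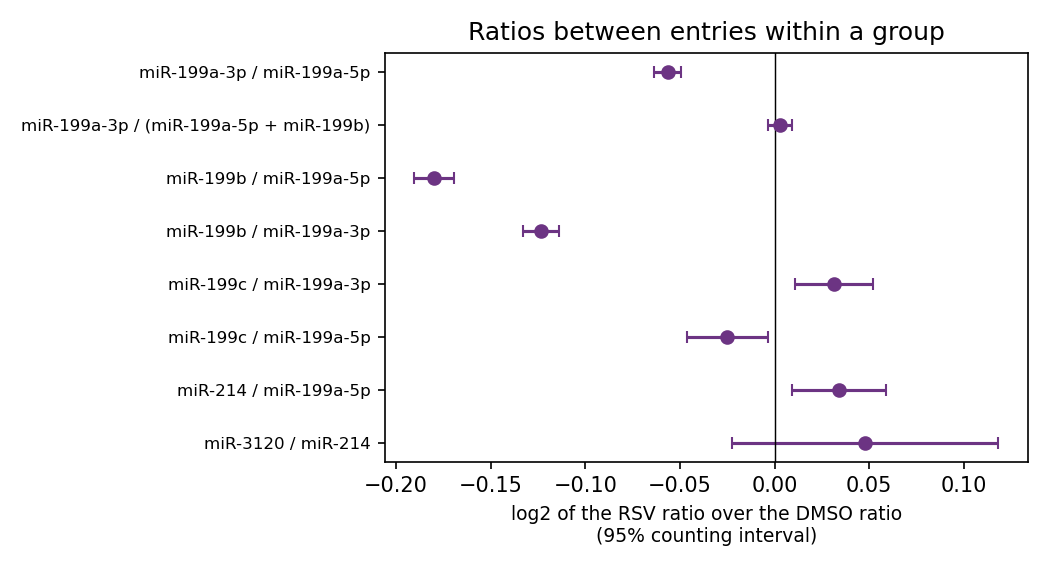
log2 of the ratio between entries in RSV over the same ratio in DMSO, with 95% counting intervals that leave out the spread between cultures. bta-miR-199b lies furthest from 0, at −0.18 relative to bta-miR-199a-5p, and the ratio of bta-miR-199a-3p to the sum of bta-miR-199a-5p and bta-miR-199b lies at 0.0027.

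As bulk RNA was sequenced, fewer cells that express these miRNAs and less miRNA per cell cannot be told apart. The muscle-specific bta-miR-206 and bta-miR-1 were abundant in both groups. bta-miR-206 had 127629 normalized reads in RSV and 139464 in DMSO, and bta-miR-1 had 28912 and 30883. Of a list of 7 muscle-specific miRNAs, 6 had a mean of at least 10, with a median log2 ratio of −0.03. Past the limit was 1, the scarce bta-miR-499 with 115 in RSV and 46.1 in DMSO (log2 ratio 1.29). Of the 391 miRNAs, 8.95% were past the limit in the lower direction and 13.6% in the higher. On a list of 13 fibroblast-associated miRNAs, all had a mean of at least 10, 7 (53.8%) had a log2 ratio below 0, against 48.3% of the 391 miRNAs, and none was past the limit in either direction. Their median was −0.03, and their log2 ratios ran from −0.30 for bta-miR-152 to 0.23 for bta-miR-29b. Among its abundant members, bta-miR-143 and bta-miR-145 had log2 ratios of −0.05 and 0.03, while bta-miR-100 and bta-miR-10b had −0.26 and −0.23, close to the value of bta-miR-214. With equal totals of all miRNAs the median was 0.12 for either list, against 0.15 for the 391 miRNAs. Of the 13 fibroblast-associated miRNAs, 3 were then below 0 (bta-miR-100, bta-miR-10b and bta-miR-152) and bta-miR-29b, at 0.38, was past the limit. Of the 6 muscle-specific miRNAs, 0 were then below 0. At this scaling 27.6% of the 391 miRNAs were below 0 and 26.9% were past the limit in the higher direction. The share of fibroblast-like cells in the cultures was not tested.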

How the data were processed

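miRNA of 6 cultures was sequenced. According to the paper's methods and the submitters' processing notes, the authors mapped the reads to UMD_3.1.1 with Bowtie 0.12.9, named miRNAs by miRBase and compared groups with DESeq. The other columns of the authors' deposited table hold their fold changes and P-values and were not used. The values used are the authors' means per group of reads divided by size factors, and the mRNA rows (26332), most without decimal points, were not analysed here.

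Log2 ratios of the deposited means used a pseudocount of 1 normalized read. Size factors were read from the smallest steps of low means and were 1.54, 1.29 and 0.935 for RSV and 0.922, 0.823 and 0.729 for DMSO. They set the counting errors, which take equal levels in the libraries of a group. Library totals were not analysed here. Means between 100 and 200 normalized reads were taken apart into whole reads where exactly 1 combination matched; for bta-miR-214, over 1000 would match by chance. In simulated RSV group means, made and taken apart with the same size factors, this returned the right reads for 300 of 300. DMSO means and errors in the size factors were not simulated. Simulated 2-fold changes with counting error alone were counted for 198 of 200 miRNAs.

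The members and the lists of fibroblast-associated and muscle-specific miRNAs were chosen with earlier results of these data known. The miRNAs named were the 6 entries, their neighbours by level, genes overlapping them and list members past a log2 ratio of 0.32, and others named were chosen after their values were seen. Mature sequences and seeds were not analysed here. Alternatives were other scalings, pseudocounts, folds, minimum means and arm assignments. Python 3.11.15, numpy 2.4.6, pandas 2.3.3 and matplotlib 3.10.9 were used.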

Additional observations from a re-analysis of the deposited data

How the results depend on the processing

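With equal totals of all miRNAs, the log2 ratios were −0.20 for bta-miR-199a-3p and bta-miR-3604, −0.14 for bta-miR-199a-5p, −0.32 for bta-miR-199b, −0.16 for bta-miR-199c and −0.11 for bta-miR-214. With equal totals of the other miRNAs, chosen after seeing the data, they were −0.23, −0.23, −0.17, −0.35, −0.20 and −0.14 in the same order (bta-miR-199a-3p, bta-miR-3604, bta-miR-199a-5p, bta-miR-199b, bta-miR-199c, bta-miR-214). Centred on the median of miRNAs with a mean of at least 100, bta-miR-199a-3p and bta-miR-3604 each had −0.35, and the other entries moved by no more than their counting interval. Pseudocounts of 0 and 10 moved no entry beyond that interval. The number of entries lower by at least 0.32 on the log2 scale, 3 of 6, became 6 at 1.1-fold, 0 at 1.5-fold and 0 with equal totals of all miRNAs. Those totals include bta-miR-3604, and bta-miR-199b lay so near the limit that its count rests on this. The share of all miRNAs lower by as much, 8.95%, became 20.1% with no minimum mean. It was 5.24% with a minimum of 100 and 8.54% with a minimum of 5000. This lower share was 5.12% with equal totals, 29.7% at 1.1-fold and 3.32% at 1.5-fold. The share higher, 13.6%, became 21.6% with no minimum mean. It was 9.27% with a minimum of 100 and 1.22% with a minimum of 5000. This higher share was 26.9% with equal totals, 31.2% at 1.1-fold and 5.37% at 1.5-fold. The 3p to 5p difference of miR-199a, −0.06, became 0.0027 with bta-miR-199b added to the 5p arm, and its counting interval then included 0. The median log2 ratios of the fibroblast-associated and muscle-specific lists turned to 0.12 and 0.12 with equal totals of all miRNAs. The names give an arm for bta-miR-199a alone, so summing all entries of an arm left the ratio as it was. Leaving out single cultures was not possible with the deposited group means of these entries. No paired analysis was possible because the deposited columns are group means and carry no replicate numbers.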

Other observations

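Among the 82 miRNAs that averaged 5000 or more normalized reads, 4 other miRNAs were lower in RSV by at least 0.32 on the log2 scale, and they are named here after their values were seen. bta-miR-3431 had 11104 normalized reads in RSV and 14604 in DMSO (log2 ratio −0.40). bta-miR-26a and bta-miR-26c, a further pair with nearly equal means, each had a log2 ratio of −0.35, and bta-miR-452 had −0.34. In all, 7 pairs of entries with a mean of at least 10 had means within 0.1% of each other in both groups, and bta-miR-199a-3p with bta-miR-3604 is the most abundant of them.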
